A study of Mus musculus with 12 samples.

Results

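The 8 dendritic cell genes described here are *Zbtb46*, *Clec9a*, *Xcr1*, *Batf3*, *Clec10a*, *Sirpa*, *Cd207* and *Fscn1*. They were chosen by name, and each is represented by the array's transcript cluster whose only gene symbol is that name. All 8 had such a cluster, among 21218 single-symbol clusters for 18820 genes. RNA came from pieces of ileum labelled as holding a Peyer's patch, and from hippocampus, of saline-perfused mice aged 6 weeks on a mixed C57BL/6J/CBA background. The mutant mice were FIRE -/-, homozygous for a germline deletion of FIRE, a conserved intronic enhancer of *Csf1r*, and were set against FIRE +/+ mice. The deleted line was bred from a single founder, and no cell type-specific driver is involved. In each tissue there were 3 FIRE -/- arrays, from 1 male and 2 females by the labels, and 3 FIRE +/+ arrays, from 2 males and 1 female. Values are log2 signal from the robust multi-array average (RMA), a method that removes background and brings the arrays to a common distribution, so a difference of 1 is a 2-fold change. Whether the arrays of a group came from separate extractions of separate mice is not spelled out, so that p-values measure the spread between these samples.

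Conventional dendritic cells take up antigen, carry it to T cell areas and present it. The Batf3-dependent type 1 cells (cDC1) cross-present antigen to CD8+ T cells, and type 2 cells (cDC2) mainly prime CD4+ T cells. Both depend on the growth factor receptor Flt3, whereas most tissue macrophages depend on Csf1r. In a Peyer's patch, dendritic cells sit under the epithelium of the dome and between the B cell follicles. The 8 genes cover the lineage factor shared by both types (*Zbtb46*), cDC1 genes (*Xcr1*, *Clec9a*, *Batf3*), receptors of cDC2 and other myeloid cells (*Sirpa*, *Clec10a*), the langerin gene *Cd207*, and *Fscn1*, an actin-bundling protein of mature dendritic cells. Several are not particular to dendritic cells. *Sirpa* and *Fscn1* are also made by neurons, and *Clec10a* by macrophages.

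The ileum arrays differed in their B cell signal. *Ms4a1*, which encodes the B cell protein CD20, was at 7.68, 2.32 and 2.14 on the FIRE -/- arrays F09, G09 and H09, against 2.68, 7.66 and 2.50 on the FIRE +/+ arrays C09, D09 and E09. The mean of 10 measured B cell genes, *Ms4a1* among them, was 7.55 on F09 and 7.41 on D09. It was 3.39 to 3.74 on the other 4 ileum arrays and 2.78 to 3.08 in hippocampus. On those 4 ileum arrays *Ms4a1* was near its hippocampus level of 1.85 to 2.26. So was the B cell gene *Pax5*, at 3.15 to 3.21 against 3.07 to 3.29. Some lymphoid genes were not. *Cd79b* lay at 5.26 to 5.94 on those 4 arrays, against 3.11 to 4.48 in hippocampus, and *Cxcl13* at 6.17 to 7.99, against 3.42 to 3.86. The low *Ms4a1* goes against their Peyer's patch label, and the strong B cell signal that the label calls for was on 1 array of each genotype. Genotype values are therefore also given below without F09 and D09, and for F09 and D09 alone. *Csf1r* itself was at 6.44, 7.53 and 6.86 on the FIRE -/- ileum arrays, against 7.41, 8.17 and 7.39 on the FIRE +/+ ones, and the genotypes overlapped. In hippocampus it was at 3.58 to 3.69 in FIRE -/- mice and 8.15 to 8.34 in FIRE +/+ mice. The probes measure the transcript and not the deleted enhancer. As gut and brain the tissues matched their labels, since the mean of 6 neuronal genes was 5.92 to 6.27 in ileum and 11.3 to 11.4 in hippocampus, and all 7 epithelial genes were higher there than in hippocampus. Of the 12 arrays, 11 matched their labelled sex and 1, the FIRE -/- hippocampus array B09, did not (*Xist* 2.44, *Eif2s3y* 6.18, labelled female). Array medians lay between 4.29 and 4.46, and no 2 arrays held identical values.

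Most of the 8 genes gave weak signal in the ileum. *Sirpa* and *Fscn1* lay above the array's median on 6 of 6 ileum arrays and *Xcr1* on 1 of 6 (D09), while *Zbtb46*, *Clec9a*, *Batf3*, *Clec10a* and *Cd207* lay below it on every ileum array. No detection call comes with the values, so that signal below the median cannot be separated from background, and small differences there carry little weight. *Cd207* lay at percentiles 24.0 to 35.6 of all clusters of an array, and *Clec10a* at percentiles 26.1 to 35.7. The plot of signal by array shows these levels.

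**Figure D1:**
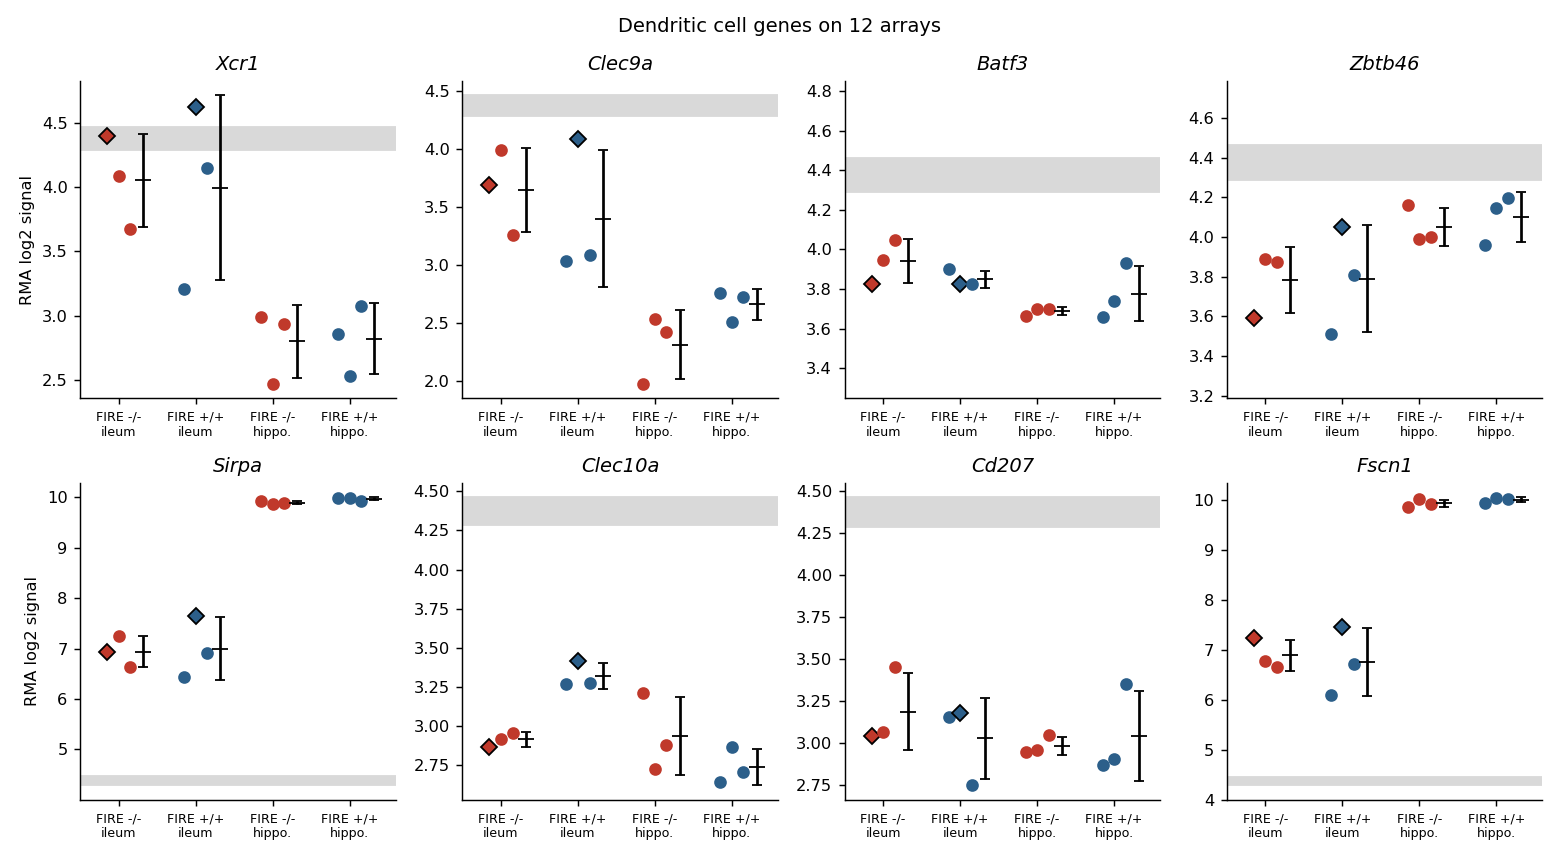
RMA log2 signal (y axis, its range set per gene) of the 8 dendritic cell genes in FIRE -/- (red) and FIRE +/+ (blue) ileum and hippocampus, 1 point per array, with group mean ± SD (black, n = 3) and the range of array medians (grey band). Diamonds are the ileum arrays of high *Ms4a1*, F09 and D09. *Clec10a* lay at 2.87 to 2.96 on the FIRE -/- ileum arrays and at 3.27 to 3.42 on the FIRE +/+ ones, and the other 7 genes overlapped between genotypes in ileum.

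The upstream sequences of *Xcr1*, *Clec9a* and *Fscn1* are shown because these genes, with *Sirpa*, varied most among the ileum arrays (SD 0.51, 0.46 and 0.48 over 6 arrays, above 95.8%, 94.8% and 95.2% of all clusters). They run from 250 bases before to 50 after the annotated start, 5′ to 3′ on the gene's strand, from RefSeq (GRCm38.p6), which held 6 of the 8 genes and neither *Sirpa* nor *Clec10a*. Capitals mark matches to the sought motifs. *Xcr1* is at chr9:123861980-123862279 (minus strand), *Clec9a* at chr6:129408612-129408911 (plus strand) and *Fscn1* at chr5:142960105-142960404 (plus strand).
Xcr1: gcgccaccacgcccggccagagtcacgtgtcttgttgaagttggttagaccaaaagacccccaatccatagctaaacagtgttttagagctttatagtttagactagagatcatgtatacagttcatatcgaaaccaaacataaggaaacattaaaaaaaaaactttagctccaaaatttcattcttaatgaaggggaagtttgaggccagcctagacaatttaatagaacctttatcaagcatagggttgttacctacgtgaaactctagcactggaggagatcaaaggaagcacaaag
Clec9a: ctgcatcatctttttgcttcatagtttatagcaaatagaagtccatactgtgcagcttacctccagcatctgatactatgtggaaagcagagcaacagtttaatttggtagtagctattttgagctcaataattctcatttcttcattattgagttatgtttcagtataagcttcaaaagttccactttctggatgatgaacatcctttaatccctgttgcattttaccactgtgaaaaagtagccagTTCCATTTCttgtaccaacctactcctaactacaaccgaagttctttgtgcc
Fscn1: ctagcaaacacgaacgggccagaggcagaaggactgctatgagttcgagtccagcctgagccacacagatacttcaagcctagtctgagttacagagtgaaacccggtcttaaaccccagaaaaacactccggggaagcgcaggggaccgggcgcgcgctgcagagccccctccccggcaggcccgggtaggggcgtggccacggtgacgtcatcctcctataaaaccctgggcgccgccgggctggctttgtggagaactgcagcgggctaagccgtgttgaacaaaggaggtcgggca
Both strands were searched for the AP-1 motif TGANTCA, which Batf3 binds with Jun proteins, the interferon regulatory factor (IRF) motif GAAANNGAA and the ETS-IRF motif GGAANNGAA. *Clec9a* held the IRF motif on its opposite strand at position -2 from the start, and *Xcr1*, *Fscn1* and *Batf3* held none of the 3. The AP-1 motif was in *Zbtb46* at -61 and in *Cd207* at -7. Of 32851 promoters of this length, 7.81% held the AP-1, 8.56% the IRF and 8.24% the ETS-IRF motif, which none of the 6 genes had. A match is a description of letters, not of binding.

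The first comparison asked whether dendritic cell genes in the ileum differed in FIRE -/- mice. None of the 8 passed the test (limma, adjusted p = 0.999 for each), and neither did any of the 21218 clusters (0% lower and 0% higher), of which 327 were lower and 393 higher at an unadjusted p under 0.05. *Clec10a* was the single member whose arrays did not overlap between genotypes. Of all clusters, 4.52% lay lower in FIRE -/- mice without overlap and 3.52% higher, so that 1 of 8 members is close to the background. In bulk tissue, fewer cells of a type and less RNA per cell cannot be told apart.

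*Clec10a* encodes a galactose-type C-type lectin (CD301a) of cDC2 and tissue macrophages. It was at 2.87, 2.92 and 2.96 on the FIRE -/- ileum arrays F09, G09 and H09, against 3.27, 3.42 and 3.28 on the FIRE +/+ arrays C09, D09 and E09. The highest FIRE -/- array was thus below the lowest FIRE +/+ one, and the B cell-rich arrays F09 and D09 stood close to their own genotype. The log2 fold change was -0.41 (SE 0.10, 95% confidence interval -0.65 to -0.17), or 0.75-fold, with an unadjusted p of 0.00494, place 34 among the 21218 clusters, and limma adjusted p = 0.999. An exact permutation of 3 against 3 arrays cannot give a p under 0.1. Its close relative *Mgl2* (CD301b), which marks a subset of cDC2, had a log2 fold change of -0.40 (SE 0.39, adjusted p = 0.999) with overlapping arrays, and *Cd209a*, a DC-SIGN relative, one of -0.43 (SE 0.44, adjusted p = 0.999). These 2 genes were the lowest of the 9 cDC2 genes, of which 4 were below 0 and 5 above (median 0.04), with *Klf4* at 0.39 and *Cd4* at 0.35. Without F09 and D09, the log2 genotype difference was 0.15 for *Cd209a* and -0.13 for *Mgl2*. *Cd209a* was at 4.52 on F09, against a mean of 5.92 on G09 and H09. None of the 9 passed the test. All values of *Clec10a* were at least 1.03 log2 units below the array's median.

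The cDC1 genes did not separate the genotypes. *Xcr1*, the receptor for the chemokine Xcl1 of CD8+ T cells and NK cells, was at 4.40, 4.09 and 3.68 in FIRE -/- ileum, against 3.21, 4.62 and 4.15 in FIRE +/+ ileum. The FIRE +/+ arrays included both the lowest and the highest value. Its log2 fold change was 0.06, with a 95% confidence interval of -0.80 to 0.92. *Clec9a*, which binds actin exposed by dead cells, was at 3.69, 3.99 and 3.26 in FIRE -/- ileum, against 3.03, 4.08 and 3.08 in FIRE +/+ ileum. Its 2 lowest values were thus FIRE +/+ arrays and its highest was D09, also FIRE +/+. The log2 fold change was 0.25, with an interval from -0.50 to just under 1. *Batf3*, the transcription factor on which cDC1 development depends, varied little, with 3.83, 3.95 and 4.05 in FIRE -/- ileum against 3.90, 3.82 and 3.82 in FIRE +/+ ileum. Its SD over the 6 arrays, 0.09, was above that of only 10.2% of clusters, and its log2 fold change was 0.09 (-0.16 to 0.34).

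*Zbtb46*, a zinc finger repressor found in conventional dendritic cells and also in endothelium, averaged 3.78 ± 0.17 in FIRE -/- and 3.79 ± 0.27 in FIRE +/+ ileum (SD, n = 3 each). The 3 FIRE -/- arrays were at 3.59, 3.89 and 3.87, within the FIRE +/+ range of 3.51 to 4.05, and the log2 fold change was -0.0062 (-0.40 to 0.39). *Sirpa*, the inhibitory receptor for CD47 on myeloid cells, was at 6.93, 7.25 and 6.63 in FIRE -/- ileum, against 6.43, 7.65 and 6.92 in FIRE +/+ ileum. All 3 FIRE -/- values lay between the lowest and the highest FIRE +/+ value, and the log2 fold change was -0.06 (-0.80 to 0.68). *Cd207* encodes langerin, the lectin of Langerhans cells and some mucosal dendritic cells. It was at 3.04, 3.06 and 3.45 in FIRE -/- ileum, against 3.15, 3.18 and 2.75 in FIRE +/+ ileum, with a log2 fold change of 0.16 (-0.25 to 0.57). *Fscn1* was at 7.24, 6.78 and 6.65 in FIRE -/- ileum, against 6.10, 7.46 and 6.71 in FIRE +/+ ileum, with a log2 fold change of 0.13 (-0.66 to 0.93). The intervals of *Xcr1*, *Clec9a*, *Sirpa* and *Fscn1* thus extended to at least 0.5 log2 units in both directions, and those of *Batf3*, *Zbtb46* and *Cd207* were narrower.

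**Figure D2:**
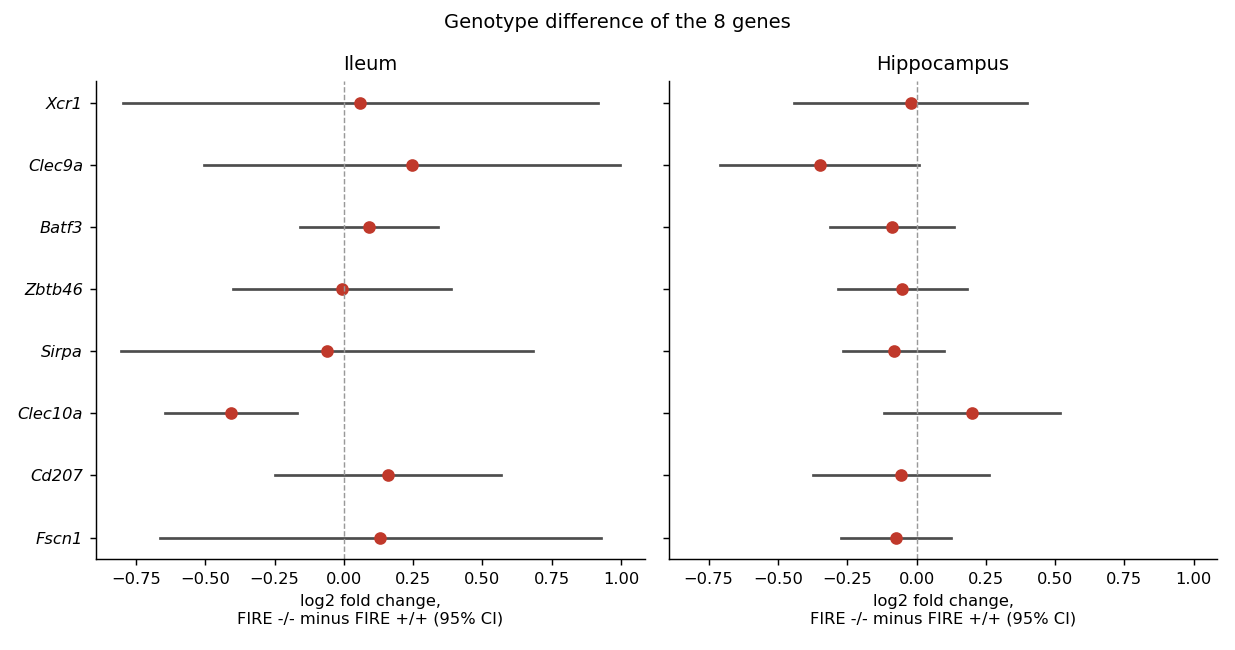
Log2 fold change, FIRE -/- minus FIRE +/+ (x axis), of the 8 genes in ileum (left) and hippocampus (right), with 95% confidence intervals from limma's moderated standard errors (n = 3 arrays per genotype). Only *Clec10a* in ileum had an unadjusted interval clear of 0 (-0.65 to -0.17), and no gene passed adjustment over all clusters.

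Beside the B cell gene *Ms4a1*, the members did not move as a group. Because the 6 arrays fall into 2 clusters of *Ms4a1*, no correlation is given, and the array of high *Ms4a1* is set against the other 2 of its genotype. *Xcr1* was 0.52 higher on F09 than the mean of G09 and H09 in FIRE -/- mice, and 0.95 higher on D09 than the mean of C09 and E09 in FIRE +/+ mice. *Fscn1* was 0.52 higher in FIRE -/- mice and 1.05 higher in FIRE +/+ mice. For both genes F09 and D09 were above all of the other 4 arrays, as were 6.68% of all clusters, while 6.97% were below. *Clec9a* differed by 0.06 in FIRE -/- and 1.03 in FIRE +/+ mice, and *Sirpa* by -0.01 and 0.98. For these genes D09 was the highest of the 6 arrays, and F09 lay between G09 and H09. *Zbtb46* differed by -0.29 in FIRE -/- mice and 0.39 in FIRE +/+ mice, and *Batf3*, *Clec10a* and *Cd207* by at most 0.23 in either direction. *Ms4a1* itself differed by 5.46 and 5.07. The difference of *Ms4a1* was thus of like size in both genotypes, while that of each of the 8 members was lower in FIRE -/- mice. The same order held for 53.0% of all clusters, it rests on 1 array per genotype, and it was not tested.

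**Figure D3:**
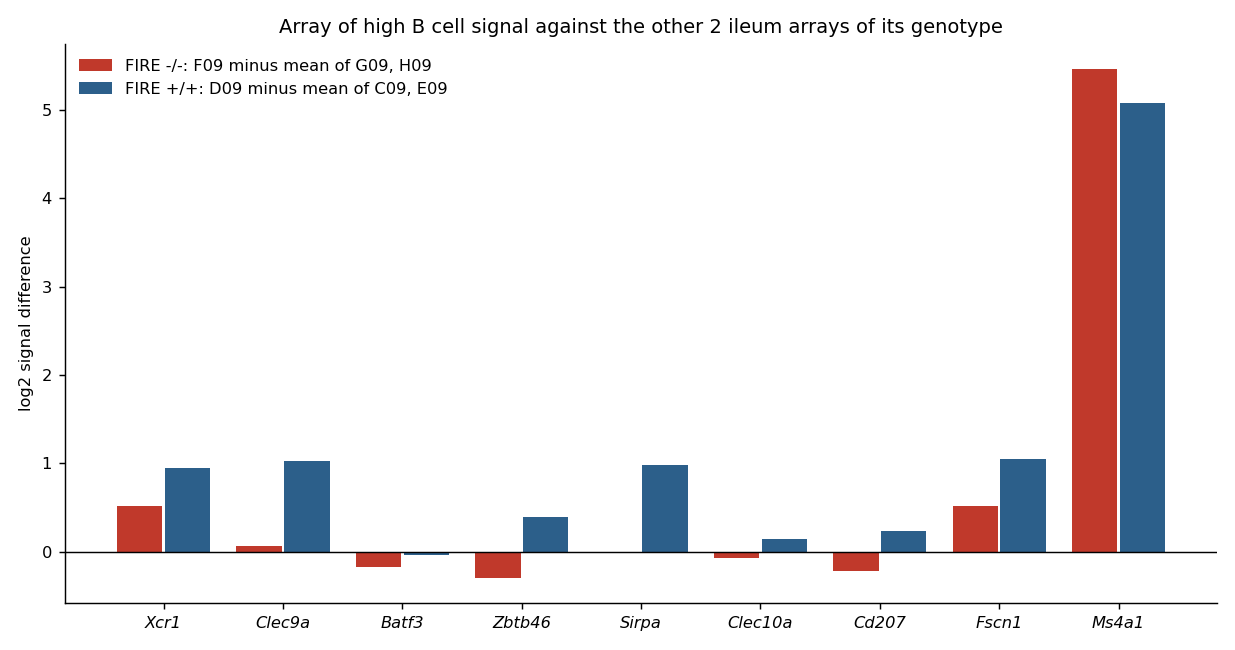
Difference in log2 signal (y axis) between the ileum array of high *Ms4a1* and the mean of the other 2 arrays of its genotype, for FIRE -/- (red, F09) and FIRE +/+ (blue, D09) mice, for the 8 dendritic cell genes and *Ms4a1*. *Ms4a1* differed by 5.46 and 5.07, and *Xcr1* and *Fscn1* by 0.52 to 1.05 in both genotypes. There is 1 array behind each high value, so no error is drawn.

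Some other cell markers moved with this split, and others did not. All 7 measured T cell genes and all 4 measured lymphoid stroma genes were higher on both F09 and D09 than on the other 4 arrays. Of the 11 macrophage genes none was, and their mean was 5.96, 6.92 and 6.40 on the FIRE -/- arrays F09, G09 and H09, against 6.17, 6.83 and 6.67 on the FIRE +/+ arrays C09, D09 and E09. F09 thus had the lowest macrophage mean and D09 the second highest. The mean of 6 endothelial genes was 6.63 on F09 and 7.06 to 7.49 on the other 5. The part of these cells in the members' values was not tested. Without F09 and D09, which leaves 2 arrays a genotype, the log2 genotype differences were 0.20 for *Xcr1*, 0.57 for *Clec9a*, 0.14 for *Batf3*, 0.22 for *Zbtb46*, 0.27 for *Sirpa*, -0.33 for *Clec10a*, 0.31 for *Cd207* and 0.31 for *Fscn1*. FIRE -/- mice were thus higher for 7 of 8 members, as for 49.6% of all clusters, and none of the 8 passed the test. Between the B cell-rich arrays alone, F09 minus D09 was -0.23 for *Xcr1*, -0.40 for *Clec9a*, 0.0023 for *Batf3*, -0.46 for *Zbtb46*, -0.72 for *Sirpa*, -0.55 for *Clec10a*, -0.14 for *Cd207* and -0.22 for *Fscn1*. FIRE -/- was here lower for 7 of 8 members, as for 54.2% of all clusters, with 1 array per genotype and so no test. *Clec10a* was lower in FIRE -/- mice in both subsets, which its lack of overlap between genotypes fixes in advance. The sign of 6 of the other members differed between the subsets.

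By likeness of profile over the 6 ileum arrays, the clusters nearest to *Xcr1*, the member with an SD above 0.5, were *Ppp1r18* and *Cnn2*, the gene of the actin-binding protein calponin 2. Their centred log2 profiles differed from that of *Xcr1* by a root mean square of 0.08 and 0.12, against a median of 0.50 over 21217 clusters. *Ppp1r18* and *Cnn2* had genotype differences of -0.02 and -0.08.

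The other dendritic cell genes in the ileum were read from 6 lists. None of their genes passed the test in either direction. The median log2 fold change was -0.00 over 10 partners of cDC1, 0.04 over 9 cDC2 genes, 0.23 over 8 genes of mature dendritic cells, 0.06 over 6 plasmacytoid genes, 0.20 over 8 genes shared by dendritic cells and -0.01 over 10 ligands and signalling partners, against -0.01 over all clusters and 0.08 over the 8 members. Among cDC1 partners the largest change was that of *Wdfy4*, which cross-presentation needs, at 0.26 (SE 0.60), and *Irf8*, a factor that drives cDC1 fate, was at 0.05 (SE 0.14). Among cDC2 genes *Klf4*, a transcription factor also made by the gut epithelium, was at 0.39 (SE 0.14, unadjusted p = 0.0257, adjusted p = 0.999), higher in FIRE -/- mice without overlap. Of all clusters, 3.52% were higher and 4.52% lower without overlap. From these lists *Cd47* was also higher without overlap, and *Socs2*, of the mature cell list, was lower (-0.27). Of the ligands, *Xcl1* was at 0.25 (SE 0.25), *Cd47* at 0.17 (SE 0.12), and *Flt3l*, whose product drives dendritic cell formation, at -0.09 (SE 0.23). The migration receptor *Ccr7* had a log2 fold change of 0.27 (SE 1.03), and was 2.86 higher on F09 in FIRE -/- mice and 2.90 higher on D09 in FIRE +/+ mice than on the other 2 arrays.

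These lists also differed in how far they went with *Ms4a1*. Of 8 genes shared by dendritic cells, 6 were higher on both F09 and D09 than on the other 4 arrays, as were 6.68% of all clusters. Among the 6 were the growth factor receptor *Flt3* (1.04 higher on average), the class II gene *H2-Ab1* (1.48) and the class II transactivator *Ciita* (2.04). *Flt3* was 0.43 higher on F09 in FIRE -/- mice and 1.64 higher on D09 in FIRE +/+ mice. It lay above the array's median on 3 of 6 ileum arrays. Of 8 genes of mature cells, 5 were higher on both F09 and D09, *Ccr7* at 2.88, *Cd83* at 2.10 and *Ccl22*, a chemokine gene, at 1.18 among them. B cells also make class II, *Ciita*, *Ccr7* and *Cd83*. Of 10 cDC1 partners 3 were (*Wdfy4*, *Btla* and *Cd8a*, which B or T cells also make). So were 3 of 9 cDC2 genes (*Irf4*, *Notch2* and *Cd4*, the last also made by T cells). Which cells gave the higher signal of the genes in these lists on F09 and D09 was not tested. The members, with 2 of 8, had a median difference of 0.27, against 1.11 for the shared genes, 1.02 for the mature cell genes and 4.10 for the 10 B cell genes. *Ms4a1*, by which F09 and D09 were picked, is among these 10 genes.

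In the hippocampus, which holds few dendritic cells, the same genotypes were compared. None of the 8 members passed the test (limma, adjusted p of at least 0.992), where 0.448% of all clusters were lower in FIRE -/- mice and 0% higher, 95 clusters in all. *Clec9a* was at 1.97, 2.53 and 2.42 on the FIRE -/- arrays A09, B09 and H07, against 2.75, 2.50 and 2.72 on the FIRE +/+ arrays E07, F07 and G07, with a log2 fold change of -0.35 (SE 0.16, unadjusted p = 0.0553). *Sirpa* was at 9.92, 9.86 and 9.89 in FIRE -/- hippocampus, against 9.99, 9.99 and 9.93 in FIRE +/+ hippocampus. It was lower without overlap, with a log2 fold change of -0.08, and 5.20% of clusters were lower and 4.46% higher without overlap. *Clec10a* was at 3.21, 2.72 and 2.88 in FIRE -/- hippocampus, against 2.64, 2.87 and 2.70 in FIRE +/+ hippocampus, a log2 fold change of 0.20 (SE 0.14). *Fscn1* was at 9.86 to 10.02 in FIRE -/- and 9.95 to 10.05 in FIRE +/+ hippocampus. The log2 fold changes of *Zbtb46*, *Xcr1*, *Batf3*, *Cd207* and *Fscn1* were between -0.09 and -0.02.

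Of the other dendritic cell lists, 4 genes fell in the hippocampus and none rose, where 0.448% of all clusters fell and 0% rose. These 4 were 1 of 10 cDC1 partners, 1 of 9 cDC2 genes, 1 of 6 plasmacytoid genes and 1 of 10 ligands and signalling partners. They were *Irf8* (log2 fold change -1.66, limma adjusted p = 0.000325), *Itgam*, the CD11b gene (-2.73, adjusted p = 3.4e-05), *Siglech*, a lectin of plasmacytoid cells and microglia (-2.56, adjusted p = 2.28e-05), and *Ptpn6*, the phosphatase SHP-1 that acts downstream of Sirpa (-0.84, adjusted p = 0.0370). Of the 11 macrophage genes 8 fell, with a median of -1.80. The paper reports that these mice lack microglia, the resident macrophages of the brain. The part of that loss in these falls was not tested. In the ileum the same 4 genes were at 0.05, -0.18, 0.33 and 0.21. The genotype difference itself differed between tissues for *Irf8* (by 1.71), *Itgam* (2.55) and *Siglech* (2.89), in a fit where 0% of all clusters were lower in the ileum and 0.0895% higher. None of the 8 members was called. *Clec10a* came nearest, at -0.61 (SE 0.17, unadjusted p = 0.00477, adjusted p = 0.912).

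**Figure D4:**
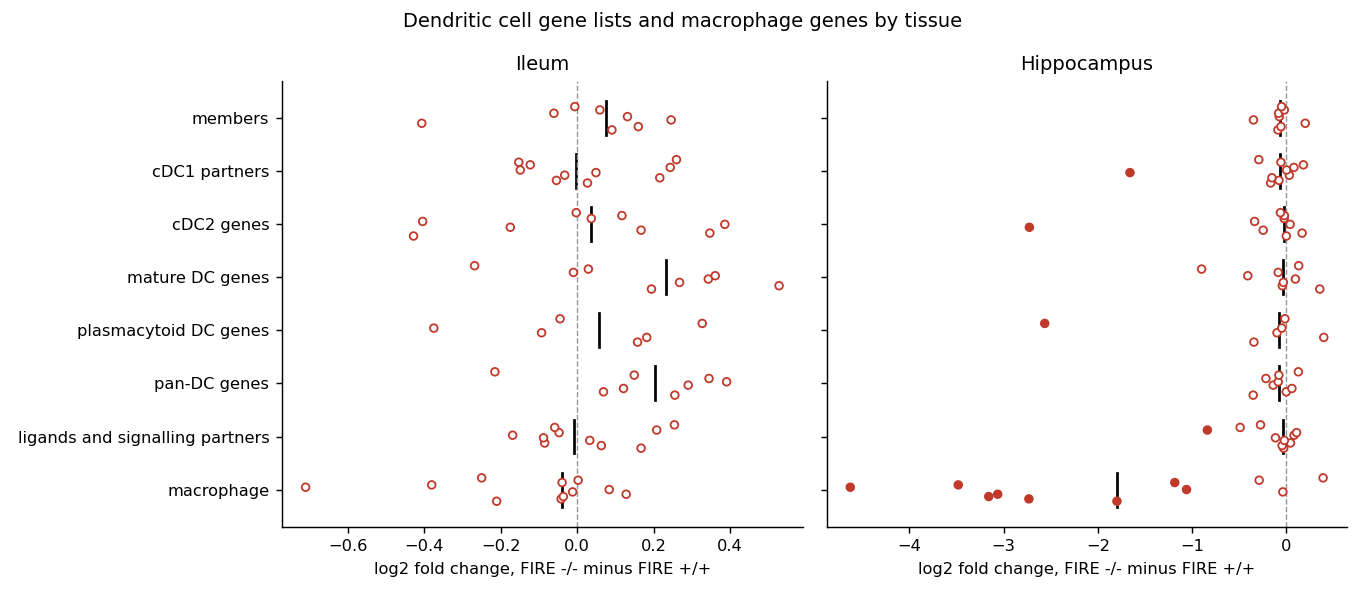
Log2 fold change, FIRE -/- minus FIRE +/+ (x axes, whose ranges differ), of the 8 members, 6 other dendritic cell lists and the macrophage list in ileum (left) and hippocampus (right), 1 point per gene. Bars are medians, and filled points passed the test (limma, adjusted p under 0.05). No gene passed in the ileum, and in the hippocampus *Irf8*, *Itgam*, *Siglech*, *Ptpn6* and 8 of 11 macrophage genes fell.

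Between tissues, 3 of the 8 members were higher in ileum than in hippocampus and 3 were lower, where 36.1% of all clusters were higher and 32.2% lower. The cDC1 receptors were the members that stood highest above their hippocampus level. *Xcr1* lay at 3.21 to 4.62 on the 6 ileum arrays and 2.47 to 3.08 on the 6 hippocampus arrays, without overlap (log2 fold change 1.21, SE 0.22, limma adjusted p = 0.000351). *Clec9a* lay at 3.03 to 4.08 in ileum and 1.97 to 2.75 in hippocampus, also without overlap (1.04, SE 0.19, adjusted p = 0.000383). *Clec10a* was 0.28 higher in ileum (SE 0.09, adjusted p = 0.0127), with overlapping arrays, and the difference was -0.02 among FIRE -/- arrays alone (adjusted p = 0.894) and 0.58 among FIRE +/+ arrays alone (adjusted p = 0.00253). *Xcr1*, *Clec9a* and *Clec10a* lay below the array's median on all 6 hippocampus arrays, and *Clec9a* and *Clec10a* also on all 6 ileum arrays. *Xcr1* did so on 5 of 6 ileum arrays. Signal below the median cannot be separated from background, so that the size of these differences is uncertain. *Sirpa* and *Fscn1* were far lower in ileum, with log2 fold changes of -2.96 (SE 0.17, adjusted p = 8.95e-09) and -3.15 (SE 0.19, adjusted p = 1.02e-08). *Sirpa* lay at 6.43 to 7.65 in ileum and 9.86 to 9.99 in hippocampus, and *Fscn1* at 6.10 to 7.46 and 9.86 to 10.05. *Zbtb46* was lower in ileum, with a log2 fold change of -0.29 (SE 0.10, adjusted p = 0.0218), with overlapping arrays. It too lay below the array's median on all 6 arrays of each tissue. *Batf3* (0.16, SE 0.07, adjusted p = 0.0502) and *Cd207* (0.10, SE 0.12, adjusted p = 0.490) did not pass.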

How the data were processed

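The authors summarised Affymetrix Mouse Gene ST arrays by RMA (no version is given), and these deposited log2 values were not scaled again. Symbols came from the platform annotation. The test covered the 21218 clusters with a single symbol, leaving aside 1881 with several and 12457 with none, and set no filter on signal. Using limma 3.58.1 under R 4.3.3, lmFit and eBayes (two-sided) were run per tissue, FIRE -/- minus FIRE +/+, and over all 12 arrays for ileum minus hippocampus and for the difference of genotype effects. P-values were adjusted by Benjamini-Hochberg over all 21218 clusters, at a threshold of 0.05. The sources do not state whether the same mice gave both tissues, so no mouse term was used. The fits were tested on simulated data. The number of arrays limits the precision.

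The members and the 14 gene lists were chosen with earlier results of these data known. Genes named are the 8 members, *Ms4a1*, *Csf1r*, up to 3 genes per list with the largest change, and the 2 profiles nearest to a member whose ileum SD was above 0.5. Other named genes were chosen after their values were seen. Of the listed genes, 7 had no cluster of their own. Promoters came from RefSeq (GRCm38.p6). The alternatives changed the shrinkage, the test (the study's one-way analysis of variance), the normalization, the clusters tested, the covariates (sex, *Ms4a1*, code number), the array weights and the arrays included. The code number is the digits in an array's code, whose meaning the labels do not give. In hippocampus the FIRE +/+ arrays E07, F07 and G07 share it with the FIRE -/- array H07. The FIRE -/- arrays A09 and B09 share theirs with all ileum arrays. Genotype in hippocampus and tissue are thus partly tied to this number and cannot be fully told apart from it.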

Additional observations from a re-analysis of the deposited data

How the results depend on the processing

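No member was called between genotypes in either tissue under any alternative. In ileum, values near 0 changed sign. *Zbtb46* was 0.0157 and *Sirpa* 0.0380 with sex, *Zbtb46* 0.0208 and *Xcr1* -0.0310 with array weights, and *Zbtb46* 0.221 and *Sirpa* 0.270 without F09 and D09. With 1 array left out, *Fscn1* ranged over -0.196 to 0.482, *Sirpa* -0.348 to 0.265, *Xcr1* -0.332 to 0.375 and *Zbtb46* -0.145 to 0.124, while *Clec10a* stayed between -0.43 and -0.36. Because its genotypes did not overlap, *Clec10a* could not change sign there. In hippocampus, *Zbtb46* was 0.0041 and *Xcr1* 0.0094 after quantile normalization, *Xcr1* 0.0608 and *Cd207* 0.0317 with array weights, and *Xcr1* 0.116 and *Cd207* 0.0051 with the code number. With 1 array left out they ranged over -0.168 to 0.143 (*Xcr1*) and -0.143 to 0.0982 (*Cd207*). The hippocampus count, 95 clusters lower and 0 higher, became 24 lower and 1 higher with the one-way analysis of variance, 62 and 3 with the code number, and 41 lower with all 12 arrays. There was 1 higher with an intensity trend, with all clusters or with sex, and 71 to 89 lower and 0 to 4 higher with 1 array left out. The fit with sex used the labelled sex, which the hippocampus array B09 did not match. The difference between tissues had 3 clusters lower and 62 higher without F09 and D09, an alternative added after seeing the data, and 12 to 41 higher with 1 array left out. There *Zbtb46* was -0.0067 after quantile normalization, and *Fscn1* (-0.121 to 0.556), *Sirpa* (-0.266 to 0.347), *Xcr1* (-0.310 to 0.396) and *Zbtb46* (-0.0947 to 0.175) changed sign with 1 array left out. Between tissues, *Cd207* was -0.0127 in FIRE +/+ arrays alone and -0.0076 after quantile normalization, and *Clec10a* -0.0236 in FIRE -/- arrays alone. *Clec10a* was not called after quantile normalization (adjusted p = 0.0993), nor *Clec9a* in FIRE +/+ arrays alone (0.0504), nor *Zbtb46* in either genotype alone (0.0809 and 0.134) or at most with 1 array left out (0.0543). *Batf3* was called in FIRE -/- arrays alone (0.0482), without F09 and D09 (0.0392) and at best with 1 array left out (0.0156). The cause of these changes was not tested. A filter for signal above the median kept only *Sirpa* and *Fscn1* of the members in ileum. Each member has 1 cluster, so no other cluster could be tried. No paired analysis was possible because the labels give no replicate numbers.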
